A study of Mus musculus with 4 samples.

Results

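The comparison set the CtIP_AA library, from B cells homozygous for the T855A substitution in CtIP, against the Wildtype library of the same series. These were 2 of the series' 4 libraries, taken by their titles, with 1 library per genotype and no replicate. CtIP_AA held 3220 prey junctions and Wildtype held 9435, together 12655 of the 18731 junctions in the series. The label of CtIP_AA gives the genotype as CtIP T855A/T855A and names neither a Cre nor an XRCC4 allele. The label of Wildtype gives CD21Cre+ CtIP +/C XRCC4 +/C, so the Wildtype cells carried Cre and, for each gene, 1 allele written C. Every difference below is therefore between 2 libraries that differ in more than the substitution, and the genotype, the animal and the library cannot be told apart. The Cre of the label is driven by CD21, which is active in mature B cells. Both other libraries are set beside these at a few places. CtIP_KO is labelled CD21Cre+ CtIP C/- XRCC4 +/C, and XRCC4_KO is labelled CD21Cre+ CtIP +/- XRCC4 C/-, so it also carries a single wild-type CtIP allele.

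The cells were mouse splenic CD43- B cells that carried preassembled IgH and IgK loci. Their culture lasted 4 days, in IL-4 (20 ng/ml) plus anti-CD40 (1 ng/ml), a mixture that drives switching to IgG1 and IgE. The growth protocol names a 129Sv background and the strain label names BL6, and which holds for these libraries was not settled. High-throughput genome-wide translocation sequencing (HTGTS) reads outward from a fixed primer site across the bait and lists the DNA ends, the prey, that were joined to it. The bait end at the join varied between reads. The bait lay in Sμ, the switch region in front of the first constant gene.

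In class switch recombination, the enzyme AID starts breaks in Sμ and in a downstream switch region, and end joining fuses them with loss of the DNA between. CtIP promotes the trimming of DNA ends to single strands, called resection, and T855 is a site that cyclin-dependent kinases phosphorylate to turn this function on. XRCC4 belongs to the ligase complex of classical non-homologous end joining, and joins made without it tend to use short stretches of shared sequence, called microhomology. IgH is transcribed from the minus strand of chromosome 12, so a lower coordinate lies further downstream. In the switch regions, a prey end read on the minus strand is counted as a deletional join, the orientation of productive switching. One read on the plus strand is counted as an inversional join.

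The bait was fixed by 2 primers, shown because every junction starts from them. On the side of the primer, away from the join, the bait alignments of blunt joins most often ended at position 114664909 of chromosome 12. The build is mm9, as named in the submitters' processing notes.

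Biotinylated primer: cagacctgggaatgtatggt

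Nested primer: cacacaaagactctggacctc

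Blunt joins, which have neither shared nor added bases, show directly what was fused. The joins printed here are at the 4 most used blunt prey positions in each library, and show what a recurrent join looks like. In each read, the 25 bases of Sμ bait before the join are in lower case and the 25 bases of prey after it are in capitals. In CtIP_AA, 3 of these prey positions were in Sγ1 and 1 was in Sε, all deletional.

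CtIP_AA, Sγ1 prey at 114573051: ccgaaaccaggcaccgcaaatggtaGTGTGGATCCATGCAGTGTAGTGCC

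CtIP_AA, Sε prey at 114514526: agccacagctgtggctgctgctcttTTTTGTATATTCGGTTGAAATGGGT

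CtIP_AA, Sγ1 prey at 114573603: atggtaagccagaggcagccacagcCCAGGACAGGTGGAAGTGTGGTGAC

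CtIP_AA, Sγ1 prey at 114573650: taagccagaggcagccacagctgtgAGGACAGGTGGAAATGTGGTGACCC

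Wildtype, Sγ1 prey at 114573984: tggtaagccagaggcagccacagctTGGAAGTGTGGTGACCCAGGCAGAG

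Wildtype, Sγ1 prey at 114574003: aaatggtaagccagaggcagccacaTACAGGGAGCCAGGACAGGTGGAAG

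Wildtype, Sγ1 prey at 114575825: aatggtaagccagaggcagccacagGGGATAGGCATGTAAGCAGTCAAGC

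Wildtype, Sγ1 prey at 114575911: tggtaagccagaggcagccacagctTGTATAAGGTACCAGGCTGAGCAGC

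The CtIP_AA positions were listed 4, 3, 3 and 3 times in the order printed, and the Wildtype positions 7, 7, 7 and 6 times. At 3 of the 4 Wildtype positions every listed blunt join also had the same bait end. Whether such repeats are independent joins or copies of 1 molecule was not tested, and the sources used here do not state whether the authors removed copies.

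The libraries also differed in how their reads began. Among blunt joins with a position, 10 of 704 CtIP_AA reads (1.42%) carried the 6 bases CCGTTA before the nested primer, against 562 of 2090 Wildtype reads (26.9%), and 87.2% of CtIP_AA reads and 66.0% of Wildtype reads began at the primer itself. No read name was shared between the blunt tables of these libraries. All tests below compare counts of junctions between 2 libraries, and their intervals (95%, Wilson for shares, exact for odds ratios) cover counting error only.

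Deletional junctions of CtIP_AA in the downstream switch regions lay nearer the 5′ end of the region than those of Wildtype, and in Sμ they lay slightly further downstream. In Sγ1, which serves IgG1, the median deletional junction was at 114573950 in CtIP_AA (114573869 to 114574040) and at 114573668 in Wildtype (114573613 to 114573719). The share of Sγ1 junctions above the pooled median was 56.4% in CtIP_AA and 47.7% in Wildtype, an odds ratio of 1.41 (interval 1.24 to 1.61, Mood's median test by Fisher's exact test, adjusted p = 4.80e-07 over 6 combinations of region and strand). In Sε, which serves IgE, the median was at 114513979 in CtIP_AA (114513861 to 114514059) and at 114513778 in Wildtype (114513731 to 114513805), with an odds ratio of 1.44 (interval 1.22 to 1.71, exact adjusted p = 5.27e-05).

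The Sμ median was at 114663339 in CtIP_AA (114663277 to 114663374) and at 114663386 in Wildtype (114663363 to 114663401). This lower position had an odds ratio of 0.797 (interval 0.666 to 0.953, exact adjusted p = 0.0226) and did not pass the test when each position was counted once, when the median was 81 bp lower in CtIP_AA (adjusted p = 0.0553). Leaving out the 10 most used positions of each library also ended it, at an adjusted p of 0.0800. The Sγ1 and Sε shifts passed the test under both of these alternatives. Counting each position once takes more junctions from the deeper Wildtype library, so it does not compare the libraries at equal depth. In Sγ1 it moved the Wildtype median to 114573460.5 and the CtIP_AA median to 114573875, and the shift grew to 414.5 bp.

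The measured shift was not the same at every percentile, and whether it truly differed between percentiles was not tested. In Sγ1 its value was larger at the downstream percentiles than at the upstream ones. The 5th percentile of CtIP_AA was higher than that of Wildtype by 465.5 bp, the 25th by 613 bp, the median by 282 bp, the 75th by 158 bp and the 95th by 133 bp. The 5th percentile stood at 114571218 in CtIP_AA (114571056 to 114571379) and at 114570752.5 in Wildtype (114570688 to 114570876), so the intervals of the downstream edge did not overlap. At the 95th percentile they did, with 114575940 to 114576308 in CtIP_AA and 114575933 to 114576052 in Wildtype.

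Sε shifted by a smaller and more even distance, with 182 bp at the 5th percentile, 137 bp at the 25th, 201 bp at the median, 139.5 bp at the 75th and 61.3 bp at the 95th. Sμ differed most at the 75th percentile, which was 152 bp lower in CtIP_AA at 114663725 (114663609 to 114663874) than in Wildtype at 114663877 (114663770 to 114663925). At the ends of Sμ the libraries lay close, with the 5th percentile 6.9 bp higher and the 95th 15.2 bp lower in CtIP_AA. CtIP_KO and XRCC4_KO are set against the same Wildtype library. The deletional medians of CtIP_KO against Wildtype differed by 46.5 bp in Sγ1, -68 bp in Sε and 3 bp in Sμ, and none passed the test (smallest adjusted p of the 3 by Mood's median test 0.522). Those of XRCC4_KO against Wildtype differed by 129.5 bp in Sγ1 (exact adjusted p = 0.0297), 71 bp in Sε (exact adjusted p = 0.343) and -46 bp in Sμ (exact adjusted p = 0.0297). The Sγ1 and Sμ medians of XRCC4_KO thus passed the test in the same directions as those of CtIP_AA, and the medians of the mutant libraries were not tested against each other. At the downstream edge XRCC4_KO did not share the CtIP_AA pattern. Its 5th percentile differed from that of Wildtype by -1177.6 bp in Sγ1 and by -2135.7 bp in Sμ. Its Sγ1 90th percentile differed by 459 bp, so its Sγ1 differences ran both ways. These percentile differences were not tested.

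**Figure D1:**
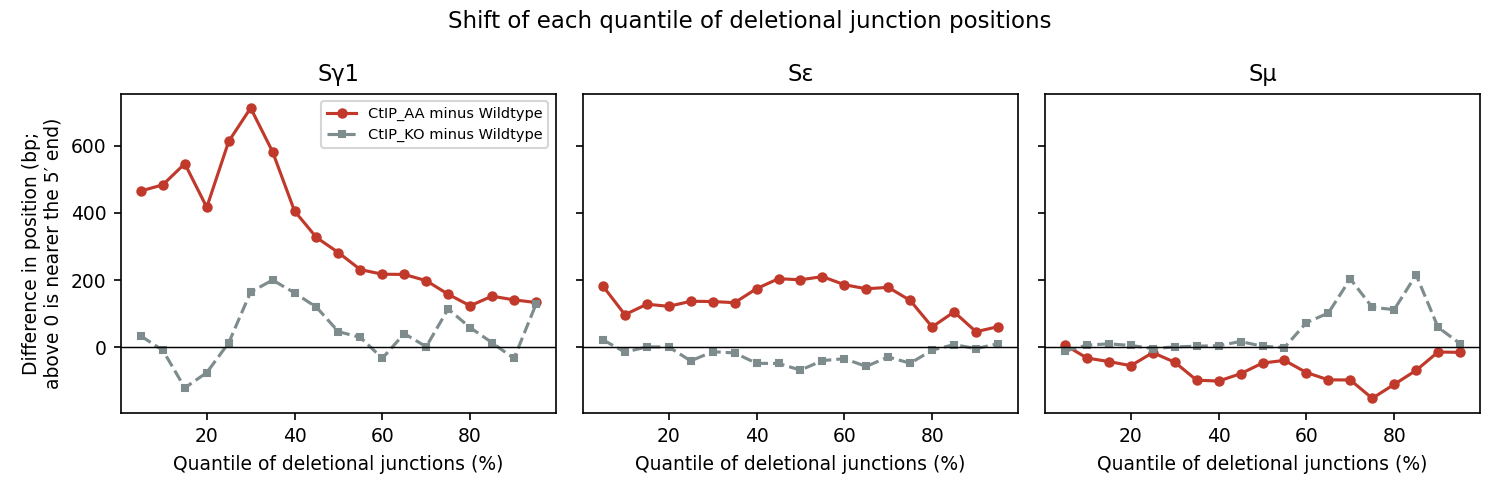
Difference in the position of deletional junctions at each quantile (5% to 95%) in Sγ1, Sε and Sμ, in bp, for CtIP_AA minus Wildtype (circles) and CtIP_KO minus Wildtype (squares), which share the Wildtype library. Values above 0 are nearer the 5′ end of the region: CtIP_AA lies above 0 at every quantile drawn in Sγ1 and Sε, by 282 and 201 bp at the median, and 47 bp below it at the Sμ median.

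Over the whole profile, a chi-square test across 500 bp bins differed between the libraries for deletional junctions in all 3 regions. The adjusted p was 1.62e-07 in Sγ1, 0.00816 in Sε and 0.0207 in Sμ. The same test of inversional junctions did not pass in any region, with an adjusted p of 0.247 in Sγ1, 0.716 in Sε and 0.108 in Sμ. The Sγ1 call held with bins of 250 and 1000 bp. With bins of 250 bp the deletional Sε call ended, at an adjusted p of 0.0639, and inversional Sμ passed, at 0.0136. With bins of 1000 bp the deletional Sμ call ended, at an adjusted p of 0.245. The widest gap between the cumulative distributions in Sγ1 was at 114573228, where 27.8% of CtIP_AA and 39.7% of Wildtype deletional junctions lay at or below that position. In Sε it was at 114513838, with 44.3% in CtIP_AA and 53.6% in Wildtype, and in Sμ the order turned, with 47.0% and 38.4% at 114663277.

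Single 500 bp bins with 20 or more junctions numbered 49 over the 3 regions and both strands. Of these, 9 differed after adjustment (18.4%), with 3 higher in CtIP_AA (6.12%) and 6 lower (12.2%). In Sγ1, the bin at 114572501 to 114573000 held 75 of 1313 CtIP_AA deletional junctions (5.71%) and 315 of 3706 Wildtype ones (8.50%), an odds ratio of 0.652 (interval 0.496 to 0.849, Fisher's exact adjusted p = 0.0207). Further downstream, the bin at 114570001 to 114570500 held 7 in CtIP_AA and 59 in Wildtype, an odds ratio of 0.331 (exact adjusted p = 0.0270). Bins in the core of the distribution differed the other way.

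The Sγ1 bin at 114573501 to 114574000 held 223 CtIP_AA junctions (17.0%) and 508 Wildtype ones (13.7%), an odds ratio of 1.29 (exact adjusted p = 0.0377). The bin at 114574501 to 114575000 held 201 (15.3%) and 454 (12.3%), with the same odds ratio and adjusted p. Both other bins that differed in Sγ1 were lower in CtIP_AA and lay between 114570501 and 114571500. Every CtIP_AA loss in Sγ1 that passed the test was thus downstream of every gain that passed it.

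Sε had the same order, with a loss downstream of a gain. Its bin at 114513001 to 114513500 held 121 of 732 CtIP_AA junctions (16.5%) and 560 of 2487 Wildtype ones (22.5%), an odds ratio of 0.682 (interval 0.544 to 0.849, exact adjusted p = 0.0207). The bin at 114514501 to 114515000, upstream of it, held 169 (23.1%) and 440 (17.7%), an odds ratio of 1.40 (interval 1.14 to 1.71, exact adjusted p = 0.0207). With the same bins, CtIP_KO against Wildtype had 0 of 48 past the threshold (0%, with 4 at an unadjusted Fisher's p under 0.05), and XRCC4_KO against Wildtype had 12 of 52 (23.1%). CtIP_KO held 2555 junctions in all, fewer than CtIP_AA. In the Sγ1 bin at 114573501 it held 17.1% of its deletional junctions, close to CtIP_AA. Its shares in the Sγ1 bins at 114570001, 114572501 and 114574501 were 1.26%, 7.16% and 13.4%, each between CtIP_AA and Wildtype. In the Sε bins at 114513001 and 114514501 it held 25.7% and 16.5%, on the opposite side of Wildtype from CtIP_AA.

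The calls of single bins did not hold with each position counted once, when 0 of 46 bins passed Fisher's exact test after adjustment and 12 had an unadjusted p under 0.05. The 9 bins kept their direction, and their smallest adjusted p was 0.0510. This counting left 988 of 1313 deletional Sγ1 junctions of CtIP_AA and 2222 of 3706 of Wildtype.

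**Figure D2:**
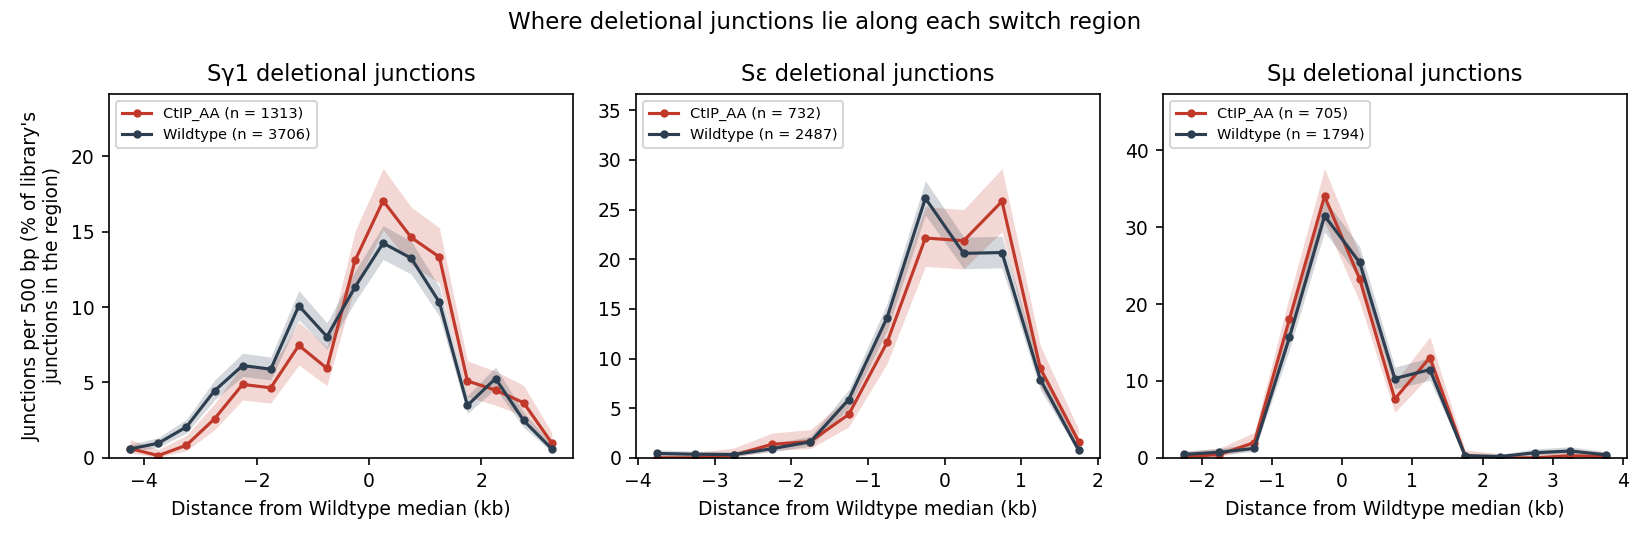
Share of each library's deletional junctions per 500 bp along Sγ1, Sε and Sμ, against the distance in kb from the Wildtype median (negative is downstream), for CtIP_AA and Wildtype, with bands for the 95% Wilson interval. The bins start at the Wildtype median and so differ from the tested ones; CtIP_AA (1313, 732 and 705 junctions) is below Wildtype (3706, 2487 and 1794) in the Sγ1 bins centred from -3750 to -750 bp and above it in those from -250 to 1750 bp, while the outer bins do not keep 1 order.

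The position shift was present in blunt joins, where both ends of each read are listed, and in the remaining joins. Blunt deletional joins in Sγ1 had their median 367 bp higher in CtIP_AA (288 joins) than in Wildtype (849 joins; exact adjusted p = 0.00234), and in Sε 340.5 bp higher (176 and 633 joins; exact adjusted p = 0.00234). Joins that were not blunt were 257 bp higher in Sγ1 (exact adjusted p = 0.000142) and 135 bp higher in Sε (exact adjusted p = 0.0155). In Sμ the median of blunt joins was 45 bp lower in CtIP_AA and did not pass the test (exact adjusted p = 0.370), and that of the remaining joins was 60 bp lower (exact adjusted p = 0.0393). The shift was thus not limited to joins with shared or added bases.

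Within Wildtype, the medians of reads with a leading CCGTTA and of reads that began at the primer did not differ past the threshold after adjustment in any region. In Sγ1, 227 Wildtype blunt joins with it had a median at 114573216, and the 566 whose reads began at the primer had one at 114573613, a difference of -397 bp (exact adjusted p = 0.0832). The odds ratio of this difference was 0.701 (interval 0.507 to 0.966), with an exact unadjusted p of 0.0277 by Mood's median test. In Sε the difference was 91 bp (exact adjusted p = 0.480) and in Sμ 23.5 bp (exact adjusted p = 0.722). The 254 CtIP_AA blunt joins that began at the primer had a median at 114573899, 286 bp higher than that of those 566 (exact adjusted p = 0.0426). In Sε the same restriction gave a median 377.5 bp higher in CtIP_AA (149 against 402 joins, exact adjusted p = 0.00234), and in Sμ one 75.5 bp lower (adjusted p = 0.154). With each pair of bait end and prey position counted once, the Sγ1 shift of blunt joins was 539.5 bp and the Sε shift 340.5 bp (exact adjusted p = 3.64e-05 and 0.00172). This counting left 256 of 288 Sγ1 joins of CtIP_AA and 719 of 849 of Wildtype, so it took more from the deeper library.

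Within CtIP_AA, the medians of deletional Sγ1 joins of each structure had overlapping intervals. The median was at 114573929.5 for 652 joins with microhomology, 114573885 for 288 blunt joins and 114573993 for 365 joins with insertions. In Sμ the median of 267 CtIP_AA joins with insertions was at 114663264 (114663179 to 114663357) and that of 138 blunt joins at 114663402 (114663354 to 114663482). These intervals overlapped too, and the differences between structures were not tested.

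Inversional joins were rarer in CtIP_AA than in Wildtype within Sμ, and no such difference passed the test in Sγ1 or Sε. In Sμ, 143 of 848 CtIP_AA junctions (16.9%, 14.5 to 19.5) and 534 of 2328 Wildtype junctions (22.9%, 21.3 to 24.7) were inversional. The odds ratio of the deletional orientation was 1.47 (1.19 to 1.81, exact adjusted p = 0.000583). The inversional share was 7.08% in CtIP_AA and 8.22% in Wildtype in Sγ1 (exact adjusted p = 0.282), and 5.43% and 5.29% in Sε (exact adjusted p = 0.856). The test of whether the odds ratio differed between the regions did not pass (likelihood-ratio chi-square of 4.43 with 2 degrees of freedom), so the difference was not shown to be particular to Sμ.

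**Figure D3:**
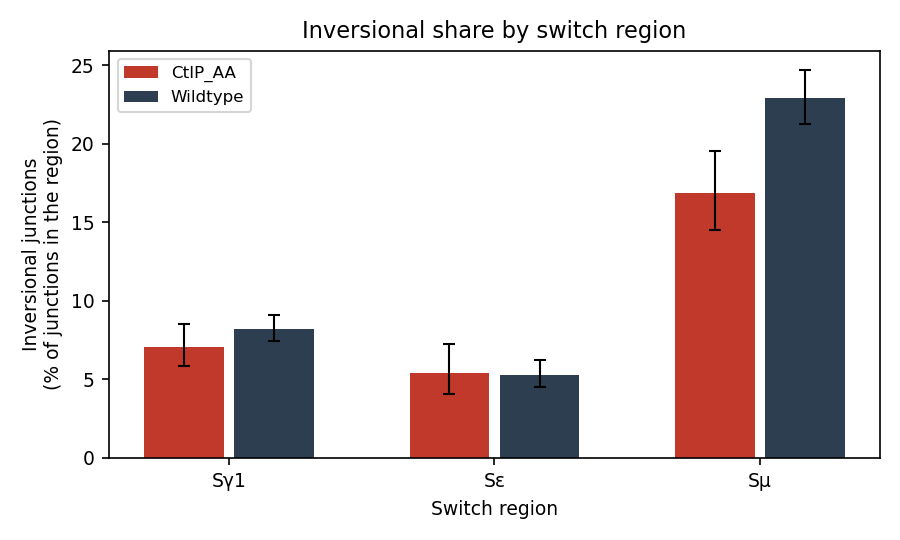
Inversional junctions as a percent of all junctions in Sγ1, Sε and Sμ, for CtIP_AA (left bar of each pair) and Wildtype (right bar), with 95% Wilson intervals. The Sμ bars stand at 16.9% and 22.9%, and the bars of Sγ1 (7.08% and 8.22%) and Sε (5.43% and 5.29%) have overlapping intervals.

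The orientation of joins was also compared in short stretches. Of 24 bins of 500 bp with 20 or more junctions in each library, 1 differed in its inversional share (4.17%), at 114662501 to 114663000, on the downstream side of the Sμ junctions. There, 24 of 190 CtIP_AA junctions (12.6%, 8.64 to 18.1) and 158 of 548 Wildtype junctions (28.8%, 25.2 to 32.8) were inversional, an odds ratio of 0.357 (interval 0.214 to 0.576, exact adjusted p = 9.14e-05). The same bin was the only inversional one whose share of its region and strand differed, with 16.8% of CtIP_AA and 29.6% of Wildtype inversional Sμ junctions (odds ratio 0.480, exact adjusted p = 0.0245). This second call ended with each position counted once (odds ratio 0.688, exact adjusted p = 0.449). The bin held 22.2% of CtIP_KO and 12.5% of XRCC4_KO inversional Sμ junctions, so it was highest in Wildtype.

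Counting each position once in that bin gave 22 of 137 in CtIP_AA (16.1%) and 93 of 317 in Wildtype (29.3%), an odds ratio of 0.462 (interval 0.262 to 0.787, exact unadjusted p = 0.00316). The bin was singled out because it differed most, and it was not tested against the rest of Sμ. Outside it, the inversional share of Sμ was 18.1% in CtIP_AA (119 of 658) and 21.1% in Wildtype (376 of 1780), lower in CtIP_AA as well, with an odds ratio of 0.824 (exact unadjusted p = 0.100). Of the other 4 Sμ bins, 3 also had a lower inversional share in CtIP_AA, with odds ratios of 0.730, 0.828 and 0.629, and the bin at 114664001 to 114664500 had a higher one (1.48). None of the 4 passed the test. Deletional junctions in the bin made up 23.5% of CtIP_AA and 21.7% of Wildtype deletional Sμ junctions (exact adjusted p = 0.610).

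Along Sγ1, the inversional share was highest at the 5′ end in both libraries, among the 13 bins with 20 or more junctions in each. It was 3.85% in CtIP_AA and 3.37% in Wildtype at 114572501 to 114573000, 4.29% and 7.91% at 114574501 to 114575000, and 26.7% and 34.5% at 114576501 to 114577000. The last of these bins held 30 CtIP_AA and 58 Wildtype junctions. The inversional median of Sγ1 was at 114574365.5 in CtIP_AA and 114574339.5 in Wildtype, 26 bp apart (exact adjusted p = 1.00). The inversional 25th percentile was 632 bp higher in CtIP_AA, with overlapping intervals (114572892 to 114574158 against 114572713 to 114573521). At 114573582, 19% of CtIP_AA and 31.6% of Wildtype inversional junctions lay at or below that position. The chi-square test of this profile did not pass (adjusted p = 0.247). With 100 CtIP_AA junctions, whether inversional joins shared the deletional shift was not settled.

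Joins with inserted bases made up a larger share of CtIP_AA than of Wildtype, and joins with microhomology a smaller one. Over all junctions, 30.7% of CtIP_AA (29.1 to 32.3) and 27.9% of Wildtype (27.0 to 28.8) had insertions of up to 30 bp (odds ratio 1.15, 1.05 to 1.25, exact adjusted p = 0.00742). Microhomology was found in 47.3% of CtIP_AA (45.5 to 49.0) and 49.9% of Wildtype (48.9 to 50.9). Its odds ratio was 0.901, between 0.831 and 0.977 (exact adjusted p = 0.0161). Blunt joins were 22.0% of CtIP_AA and 22.2% of Wildtype (exact adjusted p = 0.825). Over Sγ1 and Sε alone, neither insertions (odds ratio 1.13, exact adjusted p = 0.0879) nor microhomology (0.934, exact adjusted p = 0.263) passed the test, and among minus-strand joins of the 3 regions only insertions did (microhomology 0.927, exact adjusted p = 0.133). By region, the insertion share of deletional joins was 28.1% in CtIP_AA and 25.8% in Wildtype in Sγ1, 29.0% and 25.7% in Sε, and 38% and 34.4% in Sμ. Each odds ratio was between 1.12 and 1.18, and none passed the test alone (exact adjusted p = 0.327 for each).

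None of the 18 combinations of region, strand and join class passed (0%), and 1 had an unadjusted Fisher's p under 0.05. That was the blunt share of inversional Sε joins, 15 of 42 in CtIP_AA (35.7%, 23.0 to 50.8) and 27 of 139 in Wildtype (19.4%, 13.7 to 26.8), with an exact adjusted p of 0.327. Inversional joins in Sμ leaned the same way, with 22.4% blunt in CtIP_AA and 15.4% in Wildtype and 42.7% and 51.3% with microhomology, neither past the threshold (exact adjusted p = 0.327 for each). The tests of whether the blunt, microhomology or insertion odds ratio differed between regions gave likelihood-ratio chi-squares of 0.534, 1.21 and 0.153 with 2 degrees of freedom, and none passed.

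Of the 36 insertion length bins over the 3 regions, 0 passed after adjustment (0%) and 4 had an unadjusted Fisher's p under 0.05. In Sγ1, insertions of 21 to 30 bp were 18 of 1413 CtIP_AA junctions (1.27%, 0.807 to 2.00) and 21 of 4038 Wildtype junctions (0.520%, 0.340 to 0.794), an odds ratio of 2.47 (interval 1.24 to 4.88, exact adjusted p = 0.207). Insertions of 1 bp were 11.5% in CtIP_AA and 9.56% in Wildtype in Sγ1 (exact adjusted p = 0.404), 12.5% and 10.2% in Sε (exact adjusted p = 0.445), and 11.0% and 11.3% in Sμ (exact adjusted p = 0.986). In Sμ, 3 to 4 bp insertions were 78 of 848 in CtIP_AA (9.20%) and 154 of 2328 in Wildtype (6.62%; exact adjusted p = 0.219). In Sε, 7 to 8 bp insertions were 1 of 774 in CtIP_AA and 26 of 2626 in Wildtype (exact adjusted p = 0.219).

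Longer insertions, of at least 2 bp, made up 59.1% of inserted joins in CtIP_AA and 63.1% in Wildtype in Sγ1, 56.3% and 60.5% in Sε, and 70.8% and 67.0% in Sμ (exact adjusted p = 0.351 for each). At this limit the direction in Sμ was opposite to that of the other regions, and the test of that difference did not pass (likelihood-ratio chi-square of 3.94 with 2 degrees of freedom). With a limit of 5 bp the Sμ odds ratio was 0.864, in the same direction as in Sγ1 (0.967) and Sε (0.753), and none passed.

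The long Sγ1 insertions of CtIP_AA are printed in part because they show how many were repeats of 1 join. The 18 listed reads came from 14 different combinations of bait end, prey position and insertion length, all deletional, and 1 combination was listed 4 times. The reads below are the most repeated ones, listed 4 and 2 times, with 15 bases of bait and of prey in lower case and the 27 inserted bases in capitals.

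CtIP_AA, Sγ1 prey at 114574392: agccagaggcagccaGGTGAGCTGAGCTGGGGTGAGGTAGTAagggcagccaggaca

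CtIP_AA, Sγ1 prey at 114574335: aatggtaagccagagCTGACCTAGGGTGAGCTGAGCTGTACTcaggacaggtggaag

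Both hold the pentamer GAGCT more than once, a repeat unit of mouse Sμ. Of the 14 different insertions, 3 held GAGCT on either strand. The matching Wildtype reads were not analysed here.

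Of the 21 microhomology length bins, 0 passed after adjustment (0%) and 1 had an unadjusted Fisher's p under 0.05. That was an overlap of 1 bp in Sε, found in 125 of 774 CtIP_AA junctions (16.1%, 13.7 to 18.9) and 546 of 2626 Wildtype junctions (20.8%, 19.3 to 22.4), an odds ratio of 0.734 (interval 0.588 to 0.911, exact adjusted p = 0.0842). Overlaps of 4 or more bp among those of up to 15 bp were 15.9% in CtIP_AA and 15.1% in Wildtype in Sγ1, 13.7% and 12.3% in Sε, and 22.5% and 23.0% in Sμ. None of these differed past the threshold (exact adjusted p at least 0.837), and the intervals of the odds ratios ran between 0.718 and 1.61.

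**Figure D4:**
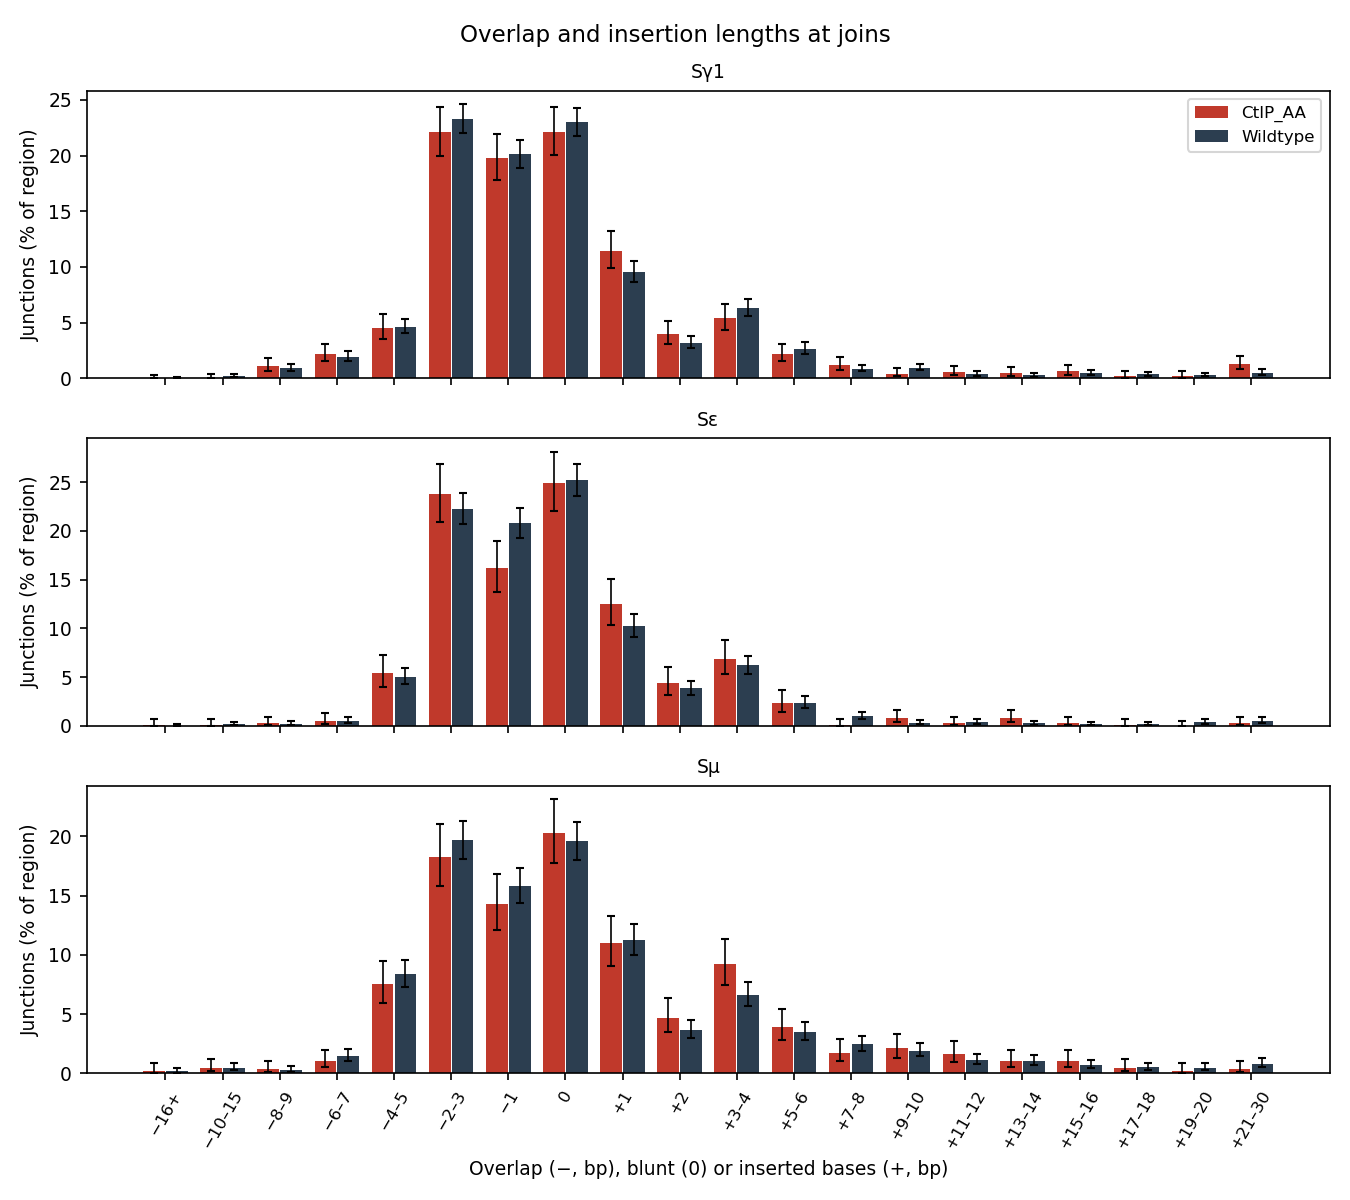
Share of each region's junctions by length of overlap (negative, bp), blunt (0) or inserted bases (positive, bp) in Sγ1, Sε and Sμ, for CtIP_AA (left bars) and Wildtype (right bars), with 95% Wilson intervals. In Sγ1 the bars at 21 to 30 inserted bases stand at 1.27% and 0.520%, and no bin passed after adjustment.

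The most used prey position was the same in both libraries in Sε only. Position 114514526 held 11 of 732 deletional Sε junctions in CtIP_AA (1.5%, 0.841 to 2.67) and 25 of 2487 in Wildtype (1.01%, 0.682 to 1.48). The odds ratio was 1.5 (0.664 to 3.18, Fisher's exact unadjusted p = 0.315). In the deposited 20-base reference window on the plus strand, the 10 bases kept in these joins are in capitals and the 10 bases lost are in lower case.

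Sε window at 114514526: ATATACAAAAgctagctcag

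This window holds AGCT, a sequence that AID targets and that reads the same on both strands, at 2 places, 1 of them across the break. It is shown because the blunt joins at this position, 3 in each library, had 3 different bait ends in each, so they were different joins. The next most used CtIP_AA positions in Sε, at 114514610 and 114513147, held 4 and 3 junctions, against 5 and 1 in Wildtype. The Wildtype list went on with 114513256 and 114513800, which held 3 each in CtIP_AA and 8 each in Wildtype.

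In Sγ1 no position was shared between the lists. In CtIP_AA, 114572324 and 114573993 held 7 deletional junctions each and 114571552 held 6, against 0, 1 and 1 in Wildtype. The Wildtype positions 114574629, 114572253 and 114574003 held 2, 0 and 3 junctions in CtIP_AA and 12, 11 and 11 in Wildtype. In Sμ, CtIP_AA had 7, 6 and 5 junctions at 114663404, 114663277 and 114662629, where Wildtype had 6, 0 and 4, and the Wildtype positions 114663409, 114663129 and 114663332 had 4, 3 and 4 in CtIP_AA and 13, 11 and 11 in Wildtype.

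Many of these repeats in CtIP_AA had the same bait end and the same overlap or insertion length. At 114572324, 5 of the 7 reads were alike, and at 114663277 all 6 were. At 114571552 the 6 reads were 6 different joins, and at 114663404 the 7 reads were 6 different joins. The matching Wildtype reads of Sγ1 and Sμ were not analysed here.

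At equal depth the numbers of positions used were close, and lower in CtIP_AA in all 3 regions. The 1313 deletional Sγ1 junctions of CtIP_AA lay at 988 positions, and a Wildtype sample of that size would be expected to hold 1040.3. In Sε the numbers were 602 in CtIP_AA and 609.3 for Wildtype, and in Sμ 514 and 539.5. Of the CtIP_AA deletional positions, 48.9% in Sγ1, 60.8% in Sε and 51.8% in Sμ were also used in Wildtype, and of the Wildtype positions 21.7%, 24.3% and 25.2% were used in CtIP_AA. Blunt joins of CtIP_AA held 656 different pairs of bait end and prey position among 704, against 669.9 expected for Wildtype at that size, and 12 pairs occurred in both libraries.

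Blunt joins gave 2 further measures. The AGCT share of the 20-base windows around the prey end was 35.3% of 312 in CtIP_AA and 36.6% of 923 in Wildtype in Sγ1, 59.7% of 191 and 53.0% of 660 in Sε, and 74.7% of 170 and 70.8% of 455 in Sμ. Elsewhere on chromosome 12 it was 3 of 16 in CtIP_AA and 5 of 26 in Wildtype. None of these differed between the libraries past the threshold (smallest exact adjusted p = 0.468). The length of bait kept had a median of 65 bp in CtIP_AA and 64 bp in Wildtype, with 10th and 90th percentiles of 39 and 93.2 bp in CtIP_AA and 40 and 90 bp in Wildtype (Mood's median test, exact adjusted p = 0.460).

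By prey class, 0 of 8 combinations of region and strand of blunt joins passed (0%), and 2 had an unadjusted Fisher's p under 0.05. Deletional Sε was 25% of CtIP_AA and 30.3% of Wildtype blunt joins (odds ratio 0.767, exact adjusted p = 0.0630). Minus-strand prey outside the 3 switch regions was 2.70% of CtIP_AA and 1.29% of Wildtype blunt joins (odds ratio 2.12, exact adjusted p = 0.0630). Over joins of every structure, Sε held 24.0% of all CtIP_AA and 27.8% of all Wildtype junctions (odds ratio 0.821, exact adjusted p = 0.000125). Over the 3 switch regions alone, the Sε odds ratio was 0.830 (exact adjusted p = 0.000269). With every prey position there counted 1 time, the call ended (odds ratio 0.901, exact adjusted p = 0.183). This counting takes more junctions from the deeper Wildtype library.

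Joins in IgH outside the 3 switch regions were 48 of 3220 in CtIP_AA (1.49%, 1.13 to 1.97) and 78 of 9435 in Wildtype (0.827%, 0.663 to 1.03), an odds ratio of 1.82 (interval 1.24 to 2.64, exact adjusted p = 0.00471). They lay between 114460796 and 114721553 in CtIP_AA, at 45 different positions and strands, and between 114462034 and 114725870 in Wildtype, at 64. With these joins counted once per position and strand and all other junctions as listed, the odds ratio was 2.07 (interval 1.38 to 3.09, exact adjusted p = 0.000694). This counting takes more joins from the deeper Wildtype library, which by itself raises the ratio. Their minus-strand share was 79.2% in CtIP_AA and 74.4% in Wildtype (exact adjusted p = 0.668). Some of these joins lay upstream of the bait, where the minus strand does not mean deletion.

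Of 12 bins of 10 kb with 3 or more such joins in either library, 1 differed (8.33%, higher in CtIP_AA). It lay at 114470001 to 114480000, downstream of Sε, and held 7 joins in CtIP_AA and 2 in Wildtype (exact adjusted p = 0.0180). Those 7 lay at 4 positions, and with each position counted once the bin had 4 and 2 and no longer passed (exact adjusted p = 0.240). The bins with the most joins were the one at 114540001 to 114550000, between Sε and Sγ1, with 4 in CtIP_AA and 16 in Wildtype, then the bins starting at 114460001 and 114530001, each with 12 in all. These held 4 and 3 in CtIP_AA against 8 and 9 in Wildtype, and the bin starting at 114490001 held 4 and 7. In bins of 50 kb, the stretch at 114450001 to 114500000 held 19 joins at 16 positions in CtIP_AA and 21 joins at 21 positions in Wildtype (odds ratio 2.66, 1.35 to 5.21, exact adjusted p = 0.0175). The genes in these bins are not named, since no annotation of mm9 was used here.

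Insertions of over 30 bp are listed apart from the totals. CtIP_AA listed 447 such reads and Wildtype 710, an odds ratio of 1.84 (interval 1.62 to 2.09, exact adjusted p = 1.92e-20). Reads whose prey lay at the primer itself were 113 of 438 in CtIP_AA (25.8%) and 122 of 692 in Wildtype (17.6%), and the nested primer occurred 2 or more times in 97 and 105 reads. No read length was given for 69.6% of CtIP_AA and 74.6% of Wildtype reads. Among reads with a length and with prey away from the primer, 20 in CtIP_AA and 54 in Wildtype were left, an odds ratio of 1.09 (interval 0.614 to 1.85, exact adjusted p = 0.789), with a median insertion of 46 and 41 bp. Among reads with prey in a switch region and away from the primer, 41 in CtIP_AA and 99 in Wildtype were left, an odds ratio of 1.21 (interval 0.820 to 1.77, exact adjusted p = 0.494). The odds ratio over all listed reads lies within the interval of the first of these subsets and above that of the second.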

How the data were processed

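The libraries were made by HTGTS with a linear amplification from the Sμ bait and a nested PCR, per the labels' protocols. Reads were aligned with Bowtie2 to mm9, per the submitters' processing notes. The authors deposited, per library, junction counts by region, strand and length bin, lists of prey positions, and reads with aligned ends. The deposited counts were used as they stand. Deposited lines without a position were left out of the read tables (6 blunt lines in CtIP_AA and 9 in Wildtype), and 305 and 516 large-insertion reads had no read length. Overlap and insertion lengths were checked against read coordinates, and the deposited windows matched the reads at 99.6% of 24820 bases.

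Two-sided Fisher's exact tests with conditional odds ratios, Mood's median test, chi-square tests over 500 bp bins and likelihood-ratio tests of logistic models were run in Python with scipy 1.17.1 and statsmodels 0.14.6, with Benjamini-Hochberg adjustment within each family and a threshold of 0.05. Mood's median test, the chi-square test and the Fisher's tests of position bins were tried on simulated data, drawn from the Wildtype deletional Sγ1 positions. The other tests were not tried in this way. The draws were independent, so they cannot show how repeated copies of 1 join affect the tests. Bins needed 20 junctions in both libraries together. Named bins are up to 4 per region and strand by p, and named positions the 3 most used per region and library. The libraries, bins and tests were chosen with earlier results of these data known. Alternatives were other bin widths, counting positions once, leaving out the most used positions, and other length limits. The CtIP_AA table of junctions outside IgH and the full Wildtype Sγ1 and Sμ read tables were not analysed here.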

Additional observations from a re-analysis of the deposited data

How the results depend on the processing

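Of 107 alternatives, 72 kept the direction and the side of the threshold, and 7 reversed the direction. Differences of medians are CtIP_AA minus Wildtype. With each position counted once, Sε took less of CtIP_AA at an odds ratio of 0.901 (exact adjusted p = 0.183). The difference of Sμ deletional medians was -81 bp (exact adjusted p = 0.0553). Differences of inversional medians reversed, to -8.5 bp in Sγ1 and -6.5 bp in Sμ, as did the Sε deletional odds ratio, at 1.23. In this setting 0 position bins and 0 bins of other IgH joins passed. Without the 10 most used positions the difference of Sμ deletional medians was -38 bp (exact adjusted p = 0.0800). That of Sε inversional medians was 407 bp (exact adjusted p = 0.0290). The Sε deletional odds ratio was again reversed, at 1.08. With Sμ left out, the Sγ1 share passed (odds ratio 1.12). Over Sγ1 and Sε alone, microhomology (0.934) and insertions (1.13) did not pass, nor did microhomology on the minus strand (0.927). Bins of 250 bp gave 5 calls of 78 and chi-square values of 26.9 in deletional Sε (adjusted p = 0.0639) and 25.9 in inversional Sμ (adjusted p = 0.0136), and bins of 1000 bp 7.87 in deletional Sμ (adjusted p = 0.245). At 2 or more bp, the microhomology odds ratio passed in Sε at 1.37 (exact adjusted p = 0.0428). It reversed direction in Sγ1 (0.983) and Sμ (1.01). At 5 or more bp the Sμ insertion odds ratio reversed too, at 0.864. Large insertions had 1.21 for prey in a switch region and 1.09 for reads with a length and prey away from the primer. Without the bin at 114662501 the Sμ deletional odds ratio was 1.21 (exact unadjusted p = 0.100). The cause of these changes was not tested. Among these, the alternatives on blunt joins, the bin at 114662501, the large insertions with a read length and the other IgH joins counted once were added after seeing the data. No paired analysis was possible because each genotype has 1 library. With 42 CtIP_AA inversional junctions in Sε and 100 in Sγ1, depth limits what those medians can show.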
